A study of Mus musculus with 7 samples.

Results

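Label 9 is 1 of 19 unnamed cluster labels that the authors deposited with their single-cell RNA profiles of mouse dorsal forebrain, and its members are the cells that carry that number. It held 431 of 10261 cells (4.20%). The study collected dorsal forebrain from CD-1 mouse embryos (an outbred strain) at 6 stages of embryonic development, from day 10.5 (E10.5) to day 18.5 (E18.5), dissociated it with papain and captured cells by Drop-seq, in which each mRNA molecule carries a cell barcode and a unique molecular identifier (UMI). There were 7 samples, 2 of them from E14.5 and 1 each from E10.5, E12.5, E15.5, E16.5, and E18.5, with no treatment or genotype group. Neither the embryos pooled for a sample nor separate litters are named, so p-values measure only the spread between these samples.

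Cortical projection neurons are excitatory cells born from progenitors of the dorsal forebrain. Those of the neocortex settle in layers marked by transcription factors such as BCL11B and FEZF2 (layer 5 neurons that project below the cortex) and TBR1 (layer 6). The hippocampal field, at the medial edge of the same sheet, expresses ZBTB20, a zinc finger repressor, and the granule neurons of its dentate gyrus express PROX1. Of the genes that mark label 9, Grp encodes gastrin-releasing peptide, Crym encodes mu-crystallin, which binds thyroid hormone, Nrp2 a receptor for class 3 semaphorins, Sema3c such a semaphorin, Kcnk1 a two-pore potassium channel, and Zfp385b a zinc finger protein.

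Label 9 was a late population. No cell of E10.5 carried it (0 of 1172 cells, which allows a share of up to 0.256%), and 3 of 2668 cells did at E12.5 (0.112%, exact binomial 95% interval 0.0232 to 0.328%). It made up 1.85% of cells in E14.5 replicate 1 (60 cells, 1.42 to 2.38%) and 3.75% in E14.5 replicate 2 (19 cells, 2.27 to 5.79%). The share was 8.97% at E15.5 (91 cells, 7.29 to 10.9%), 9.30% in E16.5 (36 cells, 6.60 to 12.6%) and 17.4% in E18.5 (222 cells, 15.3 to 19.6%). Among the cells of the neuron labels 2, 5, 9 and 11 it was 0.880% at E12.5, 7.34% and 12.3% in the E14.5 samples, 21.3% for E15.5, 21.1% for E16.5 and 32.4% for E18.5. The intervals of E15.5 and E16.5 overlapped and those of E18.5 lay above both. The intervals cover counting error only, and the shares were not tested.

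**Figure D1:**
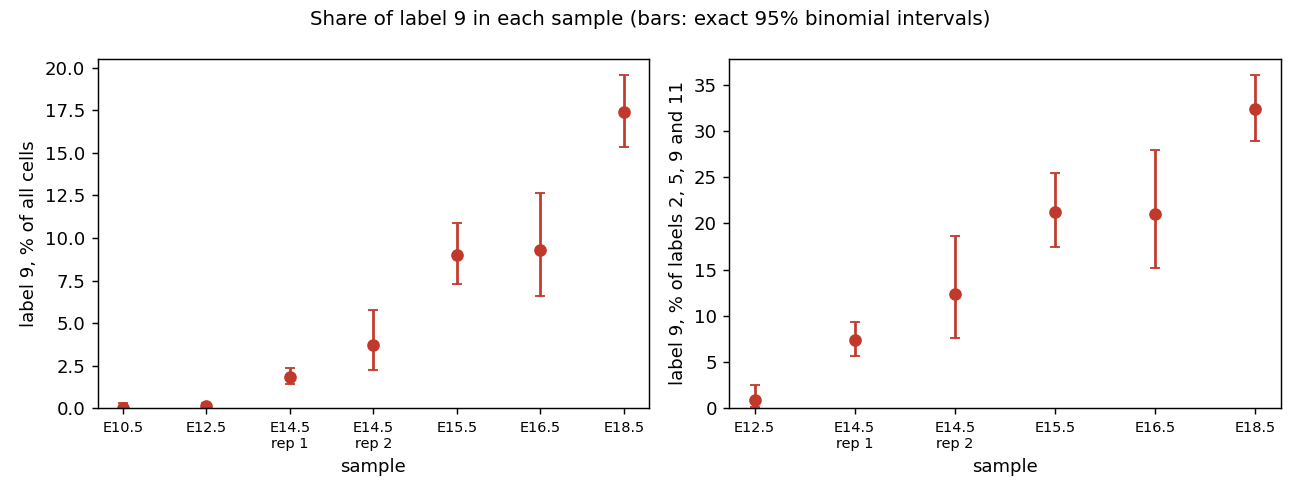
Share of label 9 among all cells (left) and among cells of labels 2, 5, 9 and 11 (right), in percent, by sample; points are samples and bars are exact 95% binomial intervals. The share of all cells was 0% at E10.5 and 17.4% at E18.5.

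Summed over the cells of label 9, the counts reached 253694 UMIs in E14.5 replicate 1, 113637 in E14.5 replicate 2, 462702 at E15.5, 183619 in E16.5 and 714417 in E18.5, with median depths between 2666 and 5664 UMIs per cell. The median share of mitochondrial UMIs was 2.17% and 2.71% in the E14.5 samples and between 6.54% and 7.69% from E15.5 on. E14.5 replicate 2, with 19 cells, fell below the 20 cells required of a sample in comparisons, and its levels are given without entering them. Doublet calling marked 6 cells of label 9, and 1 of its cells shared its barcode with a cell of another library. Levels are CPM, the UMIs of a gene scaled to a fixed total over all UMIs of that label in that sample.

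Label 9 carried its marker genes in every sample from E14.5 on. Grp stood at 43.4 CPM in E14.5 replicate 1, 35.2 in replicate 2, 102 at E15.5, 131 in E16.5 and 179 in E18.5. In label 5 it had no count in the E14.5 samples and at E15.5, where 3 counts would be 35.3, 22.0 and 5.50 CPM, and reached 14.8 CPM at E16.5 and 27.9 CPM at E18.5. Crym was nearly level, at 508 and 458 CPM in the E14.5 samples, 629 at E15.5, 468 in E16.5 and 510 in E18.5, and its highest value in labels 2, 5 and 11 was 141 CPM. Nrp2 stood at 572, 704, 527, 517 and 385 CPM in the same order of samples, above each of labels 2, 5 and 11 throughout. Sema3c was at 390, 370, 514, 539 and 1029 CPM, against at most 62.2 CPM in labels 2, 5 and 11. Zfp385b lay between 88.0 and 129 CPM. Kcnk1 was the weakest marker, with 15.8 CPM in E14.5 replicate 1, below the 23.5 CPM of label 5 there, and 137 CPM at E18.5.

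**Figure D2:**
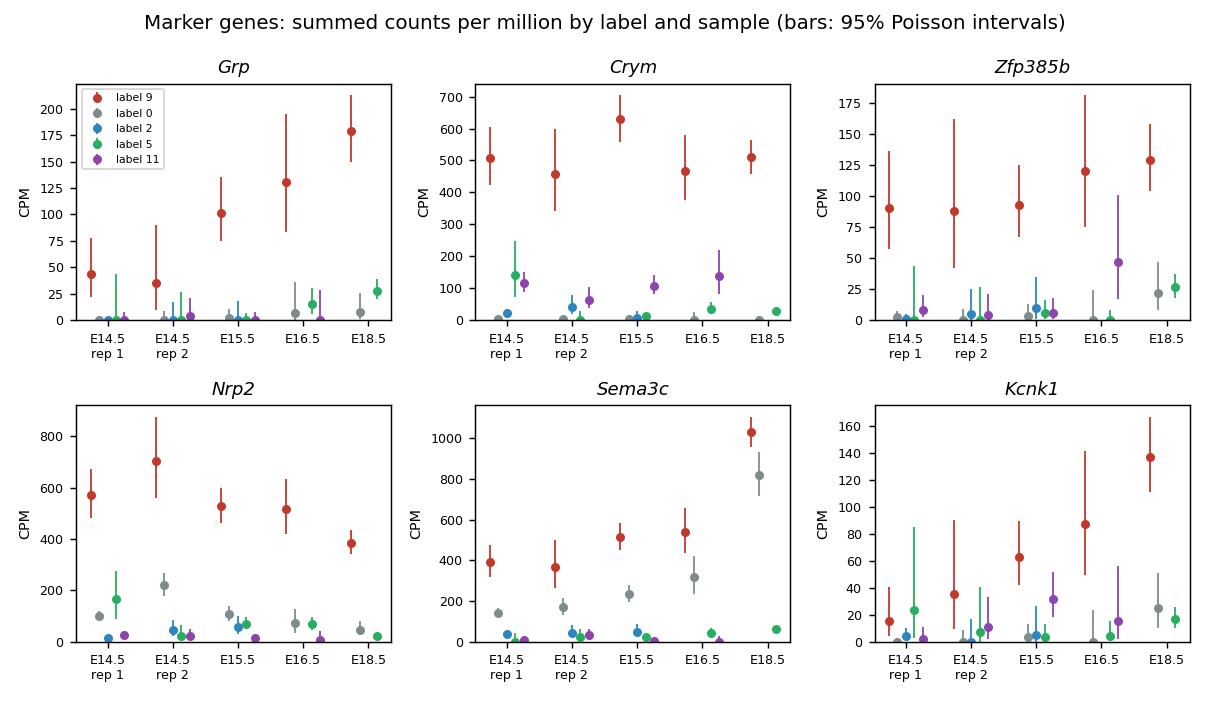
The 6 marker genes in labels 9, 0, 2, 5 and 11, in CPM by sample, with 95% Poisson intervals for counting error. Label 9 lies highest for Grp, Crym, Zfp385b and Nrp2 in each sample, while Sema3c is also high in label 0.

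Labels 2, 5 and 11 are the 3 neuron labels set against label 9. Because labels were made by clustering these cells on these genes, the contrast is described with no test. A gene is called higher or lower here where it differed at least 2-fold in every sample compared, among genes averaging at least 50 CPM on either side, and log2 ratios carry a pseudocount of 10 CPM. Against the 3 labels summed, in 4 samples, 43 of 4257 genes were higher (1.01%) and 35 were lower (0.822%). That sum differed in make-up between samples. Label 2 gave 552 of its 757 cells in E14.5 replicate 1, and label 5 gave 450 of its 463 cells at E18.5. Ratios against the sum therefore follow this mix as well as the level in label 9. Of the 6 markers 5 were higher and Kcnk1 was neither, with a median log2 ratio of 1.92; the markers were picked for this contrast, so that their count is not a finding. Against label 2 alone (2 samples), 104 of 4467 genes were higher (2.33%) and 50 lower (1.12%). Against label 5 (4 samples), 38 of 4339 were higher (0.876%) and 45 lower (1.04%). Against label 11 (3 samples), 73 of 4384 were higher (1.67%) and 75 lower (1.71%). In all 3 of these comparisons 21 genes of 3971 were higher and 9 were lower.

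The gene that stood highest over the neuron labels was no marker but Zbtb20. Its level in label 9 was 1376 CPM in E14.5 replicate 1, 1857 in replicate 2, 3557 at E15.5, 3251 in E16.5 and 4874 in E18.5. In label 5 it was at 0, 29.3, 86.2, 138 and 293 CPM. Zbtb20 was picked as the highest gene of this contrast, so the gap is a description only. The median ratio of label 9 to the 3 labels was 19.3-fold. Neurod1, a basic helix-loop-helix factor of neuronal differentiation, followed at 13.9-fold, with means of 1334 CPM in label 9 and 109 CPM in the others. Emx2, a homeobox gene of the medial and caudal cortical sheet, was 7.07-fold higher, with 217 against 24.1 CPM on average, though not called against label 11. Both Zbtb20 and Neurod1 were also present in label 0. That label, whose cells carried 1479 to 3719 CPM of the neuronal factor Neurod6, held 308 to 1974 CPM of Zbtb20, 1044 to 1199 CPM of Neurod1 and 143 to 820 CPM of Sema3c.

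Nrp1, the other neuropilin, was 4.75-fold higher, at 1202 and 1135 CPM in the E14.5 samples, 1556 at E15.5, 1759 in E16.5 and 1758 in E18.5. Together with Nrp2 and Sema3c it made 3 higher genes among the 15 of 41 semaphorin, neuropilin and plexin genes that passed the level filter; Nrp2 and Sema3c are markers of the label, none was lower and the median log2 ratio of the list was 0.16, against -0.01 for all genes. Epha4, an ephrin receptor, was 6.98-fold higher. Tgfb2, a secreted growth factor, was 8.90-fold higher, Col12a1, a collagen, 6.69-fold, and Calb2, which encodes calretinin, 7.21-fold. Calb2 was not called against label 5 alone, and its level in label 9 differed between the libraries of E15.5 (70.9 and 226 CPM). Spats2l was 5.88-fold higher, though not called against label 11 alone. Tmem159 reached 7.37-fold on the median without meeting 2-fold in every sample.

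Of the thyroid hormone list 5 of 16 genes passed the filter, and Crym was among the 2 that were higher; none was lower. The receptor genes differed in level from each other: Thra lay between 1302 and 1610 CPM, while Thrb had no count. Of the bombesin peptide system, Grp alone passed the filter, and neither receptor gene, Grpr or Nmbr, had a count in label 9. Of 18 neuropeptide genes 3 passed and Grp alone was higher, of the 3 Zfp385 genes only Zfp385b passed, and of 11 stress and immediate early genes 5 passed and none was called.

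Several upper-layer genes were low. Mef2c, a MADS-box transcription factor, lay between 35.2 and 94.6 CPM in label 9 and between 293 and 1738 CPM in label 5. Of the 24 upper-layer and callosal genes listed, 23 were measured and 16 passed the filter; 5 were lower, among them Pou3f2, Rorb, Mef2c and Kitl, and none higher, with a median log2 ratio of -1.29. Against label 5 alone 9 of 16 were lower, and against label 11 alone 3 of 11 were higher and 3 lower. Lmo4, also on that list, went the other way without a call, at 898 CPM on average against 418 CPM.

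Of the layer 6 genes, 8 of 11 passed; Sox5 and Wnt7b were lower, Zfpm2 was higher (2.36-fold), and the median log2 ratio was -1.43. Against label 11 alone 7 of 10 were lower and none higher, and against label 5 1 of 6 was lower. Tbr1 lay between 43.4 and 59.1 CPM in every sample of label 9 and between 101 and 422 CPM in label 11. Of the layer 5 genes, 5 of 14 passed and only Ldb2 was called, as lower (8.30-fold). Bcl11b lay between 209 and 497 CPM and Fezf2 between 143 and 607 CPM, both called neither against the 3 labels summed. In the 3 labels summed the layer 5 genes together stood at 2352 CPM in E14.5 replicate 1, then 1745, 953 and 496 CPM at E18.5. In label 9 they stood at 1206, 1180, 1122 and 802 CPM in the same samples. Label 9 thus lay below the sum in E14.5 replicate 1 and E15.5 and above it in E16.5 and E18.5. Of the subplate genes 2 of 10 measured passed and none was called against the sum. Against label 2 alone 1 of 1 was higher, and against label 11 alone 1 of 2 was lower. Of the claustral, insular and lateral pallial genes 5 of 11 passed and none was called against the sum. Against label 11 alone 1 of 5 was higher and 2 were lower. Against label 2 alone 1 of 3 was lower, and against label 5 alone none of 4 was called.

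On the hippocampal and subicular list, 4 of 14 genes passed. Zbtb20 and Prox1 were higher, Mpped1 was lower (5.60-fold), and the median log2 ratio was 1.18. The other 10 were below the filter, among them Fibcd1, Wfs1, Iyd and Dsp, each at 6.999 CPM or less in every sample compared. The call of Prox1 rests on few counts in the earlier samples. It had 2 and 1 UMIs in the libraries of E14.5 replicate 1, and 0 and 22 UMIs in those of E15.5. Against label 5 alone 2 of 4 genes of this list were higher and 1 lower. Against label 2 alone, and against label 11 alone, 1 of 3 was higher and 1 lower. Of the area patterning genes, 9 of 14 passed and Emx2 alone was called against the sum. Against label 11 alone 2 of 9 were higher and 2 lower. Against label 2 alone 1 of 8 was higher and 2 were lower, and against label 5 alone 1 of 9 was higher. Against the 3 labels summed, no layer list had more than 1 member called higher in label 9. The position of the cells in the tissue was not measured.

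**Figure D3:**
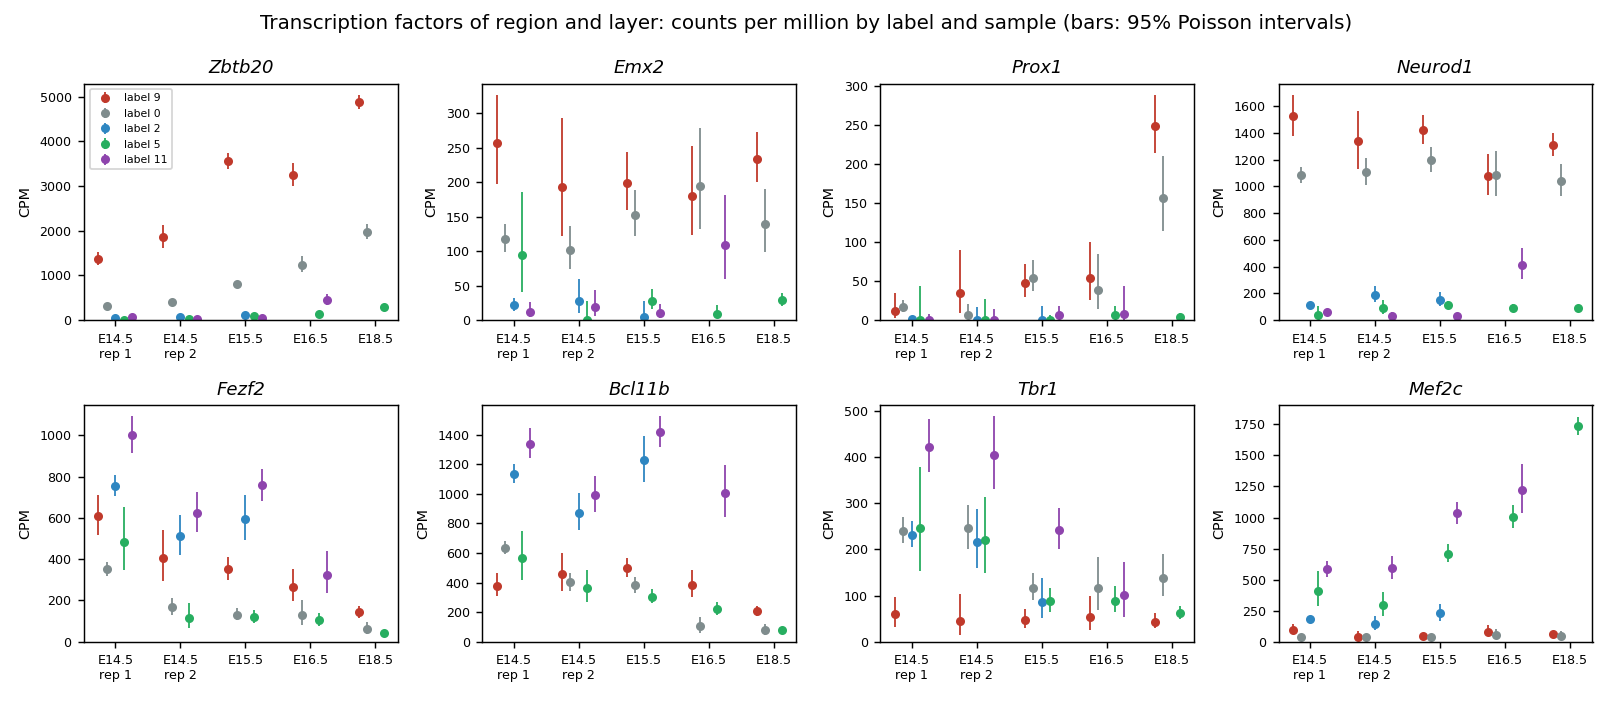
Transcription factors of region and layer in labels 9, 0, 2, 5 and 11, in CPM by sample, with 95% Poisson intervals. In label 9 Zbtb20 reaches 4874 CPM and Prox1 249 CPM at E18.5, while Mef2c stays at or below 94.6 CPM.

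General neuronal genes were mostly called neither against the 3 labels summed. Of the glutamatergic identity genes 8 of 10 passed and only Neurod1 was called. None of 17 synaptic genes, 21 axon and cytoskeleton genes, 9 voltage-gated channel genes and 2 two-pore potassium channel genes that passed was called, and of 14 radial migration genes Nrp1 was higher and Dab1, an adaptor of reelin signalling, lower. Against label 2 alone, 5 of 17 synaptic genes and 2 of 9 voltage-gated channel genes were higher; against label 5 none of either list was called, and against label 11 1 of 18 synaptic genes was higher. Among the genes lowest in label 9 were Ptn, a secreted growth factor (11.1-fold lower), Sla, an adaptor protein (8.90-fold), and Robo2, an axon guidance receptor (6.53-fold). Sla was also lower against each of labels 2, 5 and 11 alone, while Ptn and Robo2 were not called against label 11. Gucy1a3 (15.3-fold), Ndrg1 (6.41-fold) and Npy (6.07-fold) were as low on the median but did not meet 2-fold in every sample.

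Over genes within a sample, the profile of label 9 correlated most with label 2 in E14.5 replicate 1 (r = 0.872) and with label 5 in E15.5, E16.5 and E18.5 (r = 0.841, 0.843 and 0.881); at E15.5 label 2 was as close (r = 0.840). These correlations are descriptions across genes, which share their libraries and are not independent. The sums compared differed in depth. In E14.5 replicate 1 label 2 had 1115379 UMIs and label 5 had 84981, and at E18.5 label 5 had 1253171. The part of depth in the order of the labels was not tested. Over 70 sums of a label in a sample, the 5 genes whose levels followed Grp most closely were Zfp385b (r = 0.825), Nrgn (0.721), Kcnk1 (0.709), Crym (0.679) and Adamtsl1 (0.678).

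Markers of interneurons and of non-neural cells were low or without counts in label 9, while progenitor genes summed to more than in labels 2, 5 and 11. The 11 interneuron genes summed to between 10.9 and 63.0 CPM, and Gad1, Gad2 and Slc32a1 had no count before E18.5. Of the 7 Cajal-Retzius genes, Calb2 gave nearly all counts, and Trp73 had none. The 11 apical progenitor genes summed to 950 CPM in E14.5 replicate 1 and to 391, 343 and 344 CPM in the 3 later samples, against 443, 185, 170 and 156 CPM in labels 2, 5 and 11 summed. Vim, an intermediate filament gene of progenitors, gave the largest part, and was called higher in all 3 comparisons (319 against 65.8 CPM on average). The 7 intermediate progenitor genes summed to 477, 203, 174 and 242 CPM in that order, against 204, 97.9, 113 and 93.9 CPM. The part of progenitor RNA in the contrasts of label 9 was not tested. Endothelial, mural, microglial, meningeal, oligodendrocyte and astrocyte genes each summed to 10.8 CPM or less, and erythroid genes to between 5.45 and 35.5 CPM.

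The share of label 9 cells with a UMI, which also follows a gene's level, was higher for Zbtb20 than for the markers given here. Cells were thinned to 1000 UMIs to compare samples, which left 59, 80, 35 and 194 cells of label 9 in E14.5 replicate 1, E15.5, E16.5 and E18.5. Zbtb20 was found in 57.6%, 76.2%, 68.6% and 92.8% of them, and Sema3c in 23.7%, 46.2%, 34.3% and 53.6%. Neurod6 was found in 86.4%, 80%, 80% and 75.3%, above Zbtb20 in every sample but E18.5. Crym was found in 37.3%, 43.8%, 25.7% and 34.0%, and Nrp2 in 28.8%, 35.0%, 34.3% and 22.2%. Grp was found in 5.08%, 7.50%, 11.4% and 12.9% of cells, and in 30.6% at E18.5 without thinning. In label 5 at E18.5, with a median of 2093 UMIs against 2666, thinned cells showed Grp in 2.06%, Crym in 2.58%, Nrp2 in 1.29%, Sema3c in 5.15% and Zbtb20 in 22.2%. In label 0 at E18.5, with a median of 1452 UMIs, Sema3c was found in 53.3% and Zbtb20 in 64.8% of thinned cells, and Grp in 0.820%.

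Within label 9, change over the stages was tested by a slope on embryonic day with edgeR's quasi-likelihood test over 4 samples. Stage and sample cannot be told apart here. Of 6041 genes tested, 5 rose (0.0828%) and 6 fell (0.0993%) at a Benjamini-Hochberg adjusted p under 0.05, and 397 (6.57%) had an unadjusted p under 0.05. Prox1 rose from 11.8 CPM in E14.5 replicate 1 to 47.5 at E15.5, 54.5 in E16.5 and 249 in E18.5, a log2 slope of 0.93 per day (SE 0.111, edgeR adjusted p = 0.00514). Pou3f2, a POU factor of upper-layer neurons, had no count in E14.5 replicate 1, where 3 counts would be 11.8 CPM, and stood at 2.16, 59.9 and 146 CPM in the later samples (slope 1.38, SE 0.216, edgeR adjusted p = 0.0380). Cd81, a tetraspanin, rose by 0.57 per day and Zhx1, a homeobox and zinc finger gene, by 0.55. The unnamed model 2810055G20Rik also rose. In E14.5 replicate 2, outside the fit, Prox1 stood at 35.2 CPM, Zhx1 at 61.6 CPM and 2810055G20Rik at 88.0 CPM, and Pou3f2 had no count. Cd81 was at 114 CPM there, above both libraries of E15.5 (37.3 and 51.4 CPM) and E16.5 (76.2 CPM). 2810055G20Rik there was also above both libraries of E15.5 (67.2 and 46.2 CPM). With the E14.5 samples summed the call of Cd81 ended (edgeR adjusted p = 0.0733). With DESeq2 the calls of Pou3f2 (adjusted p = 0.792), Cd81 (0.499) and Zhx1 (0.179) ended.

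The 6 genes that fell included regulators of early and deep-layer neurons. Fezf2 went from 607 CPM in E14.5 replicate 1 to 350, 267 and 143 CPM (slope -0.48, SE 0.0765, edgeR adjusted p = 0.0380). Sox5, a factor of deep-layer and subplate neurons, went from 173 to 134, 87.1 and 18.2 CPM (slope -0.77). St18 (slope -0.85) and Nhlh1, a factor of newly born neurons (slope -0.76), fell over the same samples, as did Ina, which encodes the neurofilament protein internexin (slope -0.36). In E14.5 replicate 2, outside the fit, Fezf2 stood at 405 CPM, Sox5 at 106, St18 at 88.0, Nhlh1 at 96.8 and Ina at 1047 CPM. Ina there lay below both libraries of E15.5 (1418 and 1238 CPM). With the E14.5 samples summed the call of Ina ended (edgeR adjusted p = 0.0658). The other gene that fell was Rps3a3 (slope -1.30), a processed pseudogene whose reads may belong to its parent gene. It stood at 644 and 594 CPM in the libraries of E14.5 replicate 1 and had no count in E14.5 replicate 2. Its level thus differed between samples of the same stage, and the cause was not tested. Without E14.5 replicate 1 its slope was -0.37. With DESeq2 the calls of Nhlh1 (adjusted p = 0.0725) and Rps3a3 ended. Of the markers, Sema3c had a slope of 0.36 (edgeR adjusted p = 0.0515), Grp 0.41 (adjusted p = 0.215) and Crym -0.01 (adjusted p = 0.992); none of the 6 passed. Zbtb20 had a slope of 0.38 and did not pass (adjusted p = 0.193). The lower sum of the progenitor genes and the higher mitochondrial share after E14.5 ran along with these slopes, and their part was not tested. No gene passed without E16.5, and without the E14.5 library that was assigned by inference only Prox1 did.

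The level of Prox1 also differed between libraries of a stage. At E15.5 the 60 cells of one library had no Prox1 count and the 31 cells of the other had 113 CPM. At E18.5 the libraries had 313 and 122 CPM, over 156 and 66 cells.

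The same slopes were compared with those of label 5, the most numerous late neuron label, by the interaction of label and day with sample as a block in 4 samples. Of 7794 genes, 3 had a higher slope in label 9 than in label 5 (0.0385%) and 2 a lower slope (0.0257%). At an unadjusted p under 0.05 there were 334 (4.29%). A higher slope can come from a fall in label 5 with no rise in label 9. Nfib, a nuclear factor I gene, stayed between 2625 and 2952 CPM in label 9 in these 4 samples while label 5 went from 3036 to 764 CPM (slope difference 0.44 per day, SE 0.0573, edgeR adjusted p = 0.000582). Nfia, of the same family, differed by 0.48 (adjusted p = 0.0269), with 504 to 793 CPM in label 9 in these 4 samples and a decrease from 435 to 140 CPM in label 5. Pou3f2 differed by 1.35 (adjusted p = 0.00189), although label 5 had the higher level in every sample. Lmo4 differed by -0.59 (adjusted p = 0.00189), from 1064 to 698 CPM in label 9 and from 306 to 744 CPM in label 5. Nefm, a neurofilament gene, differed by -0.53 (adjusted p = 0.0367). None of the 5 passed without the sample block or with DESeq2. Against label 11 in place of label 5, none of these 5 passed, and the difference of Nfib was 0.00081 per day. That fit had 3 samples and lacked E18.5, where label 11 had 9 cells. Against label 5 without E18.5, the difference of Nfib was 0.45 per day and its call ended as well.

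**Figure D4:**
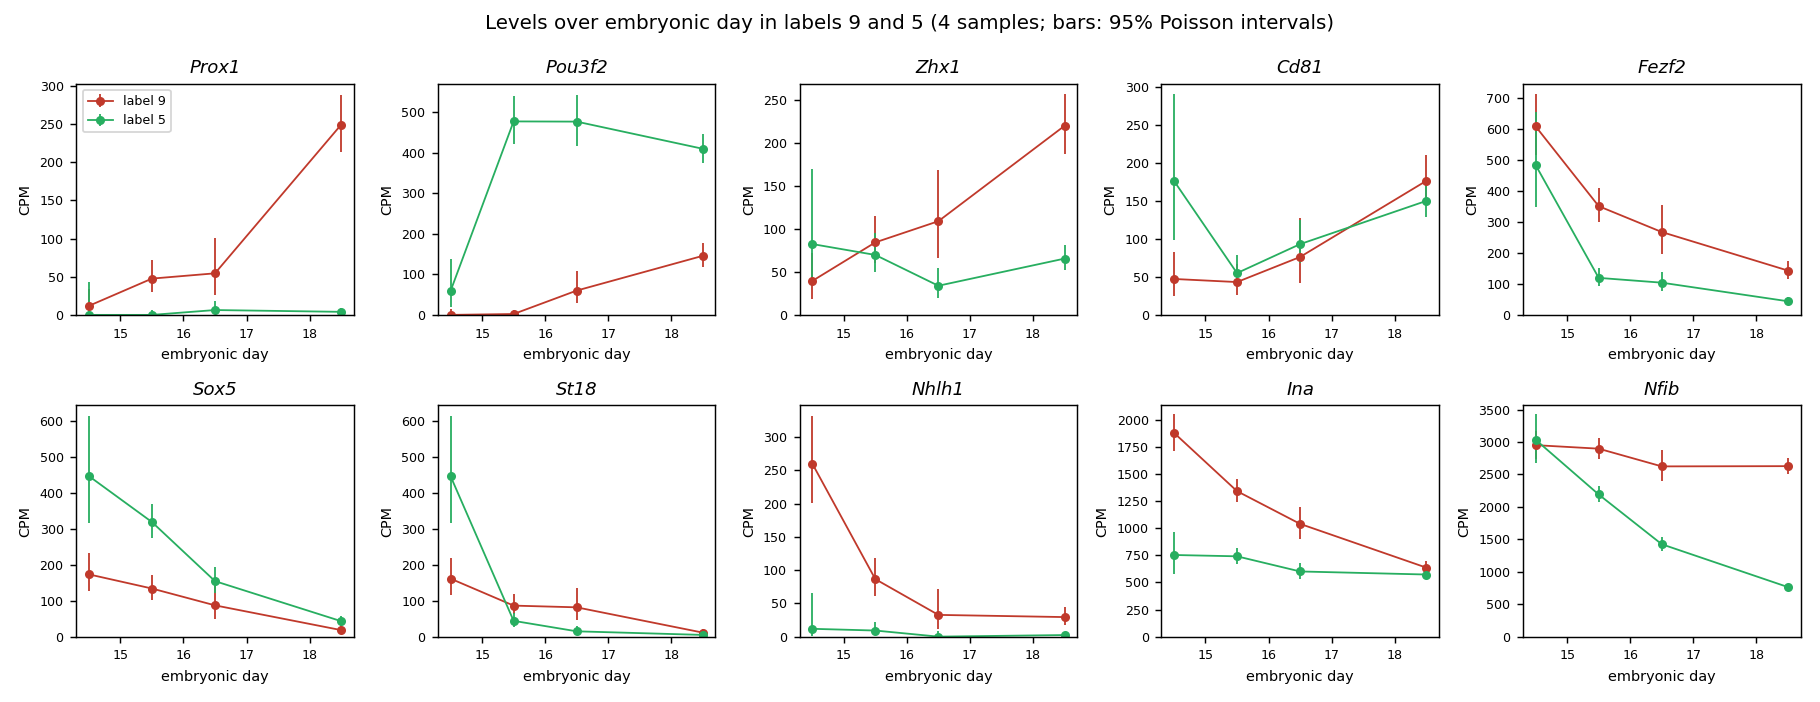
Levels in CPM over embryonic day in labels 9 and 5 for 10 genes, 1 sample per day (E14.5 replicate 1 at the first), with 95% Poisson intervals. Prox1 reaches 249 CPM in label 9 at E18.5 and Fezf2 declines to 143 CPM, while Nfib stays at or above 2625 CPM.

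Prox1 was found in a minority of label 9 cells. After thinning it was found in 0 of 59 cells in E14.5 replicate 1 (which allows up to 5.08%), in 2.50% at E15.5, in 2.86% at E16.5 and in 19 of 194 cells (9.79%, exact 95% interval 6.0001 to 14.9%) at E18.5. There it was found in 0.258% of label 5 cells and in 7.38% (3.43 to 13.5%) of label 0 cells, whose interval overlapped that of label 9. The split of E18.5 cells by a Prox1 UMI was chosen after its values were seen and is a description with counting intervals only. In the 19 cells with Prox1, Neurod1 stood at 4105 CPM (95% Poisson interval 3245 to 5124), against 909 CPM (773 to 1061) in the 175 without. Neurod6 was lower, at 737 CPM (403 to 1236) against 2217 CPM (2002 to 2449). Nrp2 was at 52.6 CPM (1.33 to 293) against 343 CPM (262 to 441). Zbtb20 was high on both sides, at 6000 and 4686 CPM. It was found in 180 of the 194 cells, among them all 19 cells with Prox1 and all 25 cells with Grp. If independent, 17.6 and 23.2 cells would carry both, so these counts do not set those cells apart. No cell had both Grp and Prox1, where 2.45 would carry both if they were independent, a difference too small to read at this depth. Sema3c, at 895 and 1086 CPM, had overlapping intervals.

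**Figure D5:**
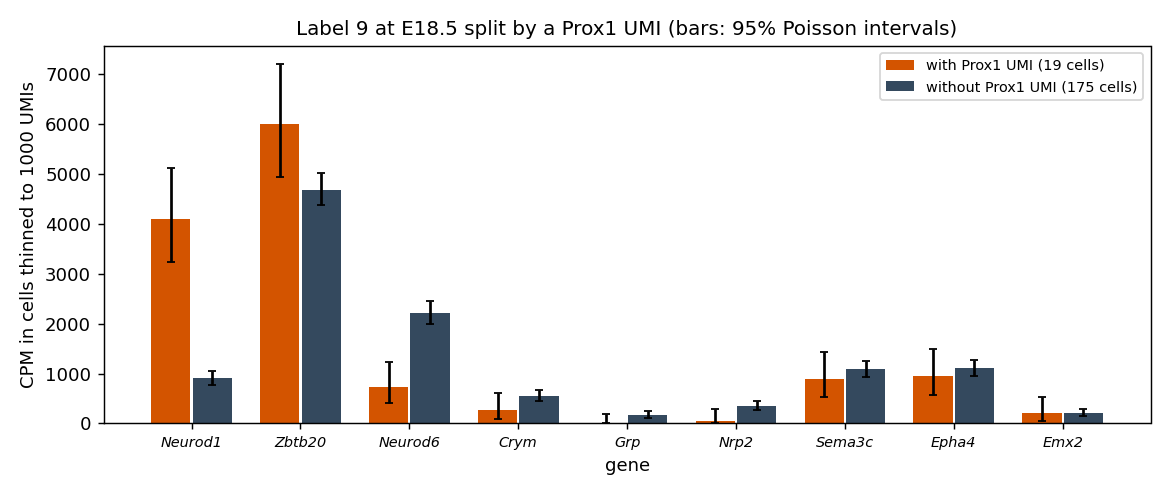
Levels at E18.5 in label 9 cells thinned to 1000 UMIs, with a Prox1 UMI (19 cells) and without (175 cells), in CPM; bars start at 0 and error bars are 95% Poisson intervals. Neurod1 is at 4105 against 909 CPM and Neurod6 at 737 against 2217 CPM.

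Because the genes higher in label 9 included Neurod1, promoters of the markers and of the genes higher in all 3 comparisons were searched for the E-box CAGATG on both strands (CATCTG on the other), a motif chosen after the values were seen. Windows of 300 bases around the start site, from RefSeq on GRCm38.p6, were found for 16 of 22 genes. The motif was in 5635 of 32851 windows of all genes (17.2%), in 1 of 18 windows of the genes higher in all 3 comparisons (5.56%) and in 1 of 7 windows of the markers (14.3%). Of those 7 windows 4 were of Zfp385b, and none was of Grp or Crym, which were not searched. The single match lay in Sema3c, chr5:17574566-17574865 on the plus strand, shown with the match in capitals beside the window of Nrp2, chr1:62703067-62703366 on the plus strand, which has none.
Nrp2: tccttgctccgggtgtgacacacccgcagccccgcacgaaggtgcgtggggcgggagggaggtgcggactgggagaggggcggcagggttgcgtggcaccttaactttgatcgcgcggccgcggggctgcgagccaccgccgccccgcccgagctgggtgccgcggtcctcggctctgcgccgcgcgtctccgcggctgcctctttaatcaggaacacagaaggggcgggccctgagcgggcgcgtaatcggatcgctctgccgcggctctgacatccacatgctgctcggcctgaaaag
Sema3c: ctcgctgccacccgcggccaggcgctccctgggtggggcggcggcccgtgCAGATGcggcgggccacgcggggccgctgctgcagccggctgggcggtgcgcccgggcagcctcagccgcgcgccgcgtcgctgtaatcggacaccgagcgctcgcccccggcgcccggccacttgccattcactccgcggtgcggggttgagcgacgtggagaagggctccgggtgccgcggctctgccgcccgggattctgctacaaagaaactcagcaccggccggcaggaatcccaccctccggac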

How the data were processed

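Whole-number UMI counts (21862 genes by 10261 cells) were deposited by the authors in 1 matrix, with a library and a cluster label per cell. Per the labels' protocols, cells were captured by Drop-seq; the submitters' processing notes name Seurat 3.1.5 and mm10. The aligner, annotation and counted strand are not given in the sources used here. The 12 libraries were matched to 7 samples by name, 1 of them, of E14.5, by inference. The members and the 31 gene lists were chosen with earlier results of these data known.

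UMIs of a label in a sample were added up, given 20 or more cells. Slopes and slope differences came from edgeR 4.0.16 (R 4.3.3), by its quasi-likelihood test (TMM scaling, filterByExpr, two-sided, adjusted over all genes tested) after the script was tested on simulated data. DESeq2 1.42.0 was an alternative. Scrublet called 95 doublets (0.926%), which were left out only in an alternative; no cell of label 9 was among 13 erythroid cells. Named genes were the 6 markers, list members, the 15 highest and 10 lowest by median log2 ratio, up to 10 called slopes and 8 slope differences per direction with at least 50 CPM, and the 5 genes most like Grp; ribosomal, mitochondrial and sex-linked genes and unnamed models were left out of the ranks. Some genes that these rules name are not reported here.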

Additional observations from a re-analysis of the deposited data

Results flagged for a closer look

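The slope on embryonic day differed between labels 9 and 5, by the test of the interaction with sample as a block, for 5 genes. The differences, label 9 minus label 5, were 1.35 log2 units per day for Pou3f2, 0.48 for Nfia, 0.44 for Nfib, -0.59 for Lmo4 and -0.53 for Nefm. No group held the 4 samples needed to look for an outlying sample.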

How the results depend on the processing

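Counts of slopes rest on 4 samples and moved with most settings. For label 9, against 5 rises and 6 falls, the rises were 2 with DESeq2, 3 with RLE size factors, 3 with doublets left out, 3 with at least 1000 UMIs, 15 with thinned sums and 12 with the E14.5 samples summed. Rises and falls were 58 and 25 with no filter, 1 and 0 at a mean of 50 CPM, 21 and 15 with samples of at least 10 cells, and 1 and 0 without the inferred E14.5 library, an alternative chosen after seeing the data. Leaving out 1 sample gave 0 to 34 rises and 0 to 15 falls, the lowest without E16.5 and the highest without E15.5.

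For the difference from label 5, against 3 and 2, the higher and lower slopes were 0 and 0 with DESeq2, 9 and 9 with no filter, 5 and 4 at 50 CPM, 1 and 0 with thinned sums, 12 and 9 with at least 10 cells, 5 and 5 with at least 1000 UMIs, 14 and 9 with E14.5 summed, 9 and 6 by stage rank, 29 and 30 against labels 2, 5 and 11 summed, and 5 and 7 against label 11. With no replicate block there were 0 and 0, with the pairing being that of 2 labels within 1 sample. Lower slopes were 1 with RLE, and higher slopes 1 with at least 30 cells and 1 without the inferred library. Leaving out 1 sample gave 1 to 13 higher and 0 to 2 lower. Against label 11, in 3 samples without E18.5, Lmo4 (0.40) and Nefm (0.40) turned direction and Nfib went to 0.00081. The cause was not tested. The 11 called slopes of label 9 kept their direction in every alternative fitted.

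At 3-fold, genes higher and lower were 46 and 20 against label 2, 19 and 18 against label 5, 33 and 42 against label 11, and 23 and 13 against the sum. At 100 CPM they were 54 and 27 against label 2. Leaving out 1 sample gave 210 to 268 higher and 135 to 207 lower for label 2, 44 to 74 higher for label 5, 95 to 118 higher and 100 to 116 lower for label 11, and 36 to 57 lower for the sum. Without thinning, shares of E18.5 cells were 30.6% for Grp, 50% for Crym, 25.2% for Zfp385b, 47.3% for Nrp2, 73.0% for Sema3c and 25.2% for Kcnk1; at 1500 UMIs they were 19.02% for Grp, 35.6% for Nrp2 and 66.9% for Sema3c. The 26 shares of label 9 stayed within their intervals. The alternative of at most 5% mitochondrial UMIs was not run, because 1 sample was left.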
